A study of Mus musculus with 5 samples.

Results

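The genes described here are the SNARE proteins, synaptotagmins and priming factors of exocytosis, the release of vesicle contents by fusion with the plasma membrane. They were taken from the array's annotation by name, as every gene whose symbol starts with *Syt* (synaptotagmins, and with a further letter the synaptotagmin-like *Sytl* genes), *Stx* (syntaxins), *Stxbp* (syntaxin-binding proteins), *Vamp*, *Snap*, *Unc13* or *Rims* and goes on as the family names do. This gave 61 of the 19057 genes tested, with 121 of the 45281 probes on the array. RNA came from lenses of newborn mice (postnatal day 0) and was hybridised to 5 Illumina MouseWG-6 v2.0 arrays, with 2 lenses for each biological replicate. The 3 mutant arrays (A, B and C) hold Celf1cKO/lacZKI; Pax6GFPCre lenses. In these mice 1 *Celf1* allele loses exon 5 in the lens, where the Pax6GFPCre transgene is active from the lens placode on, and the other allele is a germline lacZ knock-in, so it is lost in every tissue. The 2 control arrays (A and B) hold lenses that the labels give as wild-type on a mixed background of C57BL/6J and FVB, and the array methods of the study call them wild-type too. Its general account of the mice describes controls as floxed animals lacking Cre or as Cre carriers with intact *Celf1*, and whether that applies to these arrays is not settled. The question of the comparison was which transcripts change in the lens when Celf1, a protein that binds mRNA and controls its stability and translation, is lost.

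Membrane fusion is driven by SNARE proteins. A vesicle SNARE of the Vamp family pairs with syntaxin and SNAP-25-type SNAREs of the target membrane, and the bundle they form pulls the membranes together. Munc18 proteins (some of the *Stxbp* genes) hold and chaperone syntaxins, and Munc13 proteins (*Unc13*) open the syntaxin and prime the vesicle. Rims proteins hold vesicles at the release site, and some of the synaptotagmins sense calcium. Only part of the machinery is neuronal: other members carry cargo between the endoplasmic reticulum, Golgi, endosomes and lysosomes in every cell. Lens fiber cells build a very large plasma membrane as they elongate and later degrade their organelles.

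Values are the deposited intensities of the brightest probe of each gene, background-corrected and normalized, on a linear scale on which a probe without signal lies near 0. Fold changes are mutant minus control on the log2(intensity + 36.5) scale, which understates the change of dim genes, and p-values come from limma, adjusted by Benjamini-Hochberg over all 19057 genes with a threshold of 0.05. A gene is said to be higher, lower or to have passed only where it met this threshold. In a whole lens, fewer cells of a type and less RNA per cell cannot be told apart. Mutant lenses A, B and C and control lenses A and B below stand for the 5 arrays, each of 2 lenses.

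*Celf1* itself read 167.4, 172.7 and 154.2 in mutant lenses A, B and C, against 515.7 and 460.7 in control lenses A and B (log2 fold change -1.38, adjusted p 7.88e-04). The labels give no sex. *Xist*, transcribed from the inactive X, was at -0.3, -0.9 and 263.5 in mutant lenses A, B and C, against 432.4 and 440.6 in control lenses A and B. *Eif2s3y*, a Y-linked gene, was at 206.9, 177.3 and 4.4 in the mutant lenses, against 2.5 and 1.1 in the controls, so mutant arrays A and B stand apart from the other 3, and the results below are also given for mutant array C alone. That fit has 1 mutant array, which is assumed to vary like the controls. Lens fiber markers were bright, with 7 of 8 measured and a summed intensity of 95066 to 110530 in mutant lenses and 118600 to 128290 in control lenses, except *Gja3*, which lay near 0. Lim2 and Bfsp2, fiber membrane and cytoskeleton proteins, were lower in mutant lenses, and no other fiber marker passed. The lens epithelial markers summed to 137.7 to 208.8 in mutant lenses and 238.4 to 259.7 in control lenses, with *Pax6* near 0. The 10 neuronal markers, which are of interest because many members are best known from neurons, summed to only 56 to 78.7 in mutant lenses and 77.3 to 77.7 in control lenses, with no single value above 19. The 10 measured retinal markers summed to 57.4 to 75.4 in mutant lenses and 44.4 to 57.4 in control lenses, and the 5 measured leukocyte markers to 96.6 to 148.2 in mutant lenses and 113.2 to 123.9 in control lenses. No marker of these 3 lists passed the test in either direction. The 2 measured red blood cell markers summed to 1246.7 to 4495.8 in mutant lenses and 1432.5 to 1970 in control lenses. Neither of them passed, nor did any measured marker of skeletal muscle, pigment cells or blood vessels. The part of these cells, and of the split in *Xist*, in the results below was not tested further.

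Of the 61 members, *Unc13c*, *Stx4a*, *Stx3* and *Snap47* were higher in mutant lenses and *Stx11*, *Stx12* and *Unc13b* were lower. The 4 higher members make 6.56% of the family, against 3.15% of all genes, and the 3 lower members make 4.92%, against 2.68% of all genes. The other 54 did not pass. At an unadjusted p under 0.05 there were 8 members higher (13.1%, against 9.03% of all genes) and 7 lower (11.5%, against 8.76% of all genes). All 7 members that passed had every mutant array on one side of both controls. Among all members 16 (26.2%) had every mutant array above both controls, against 16.3% of all genes, and 11 (18.0%) had every mutant array below both, against 17.3% of all genes. The median log2 fold change over the members was 0.01, against -0.00 over all genes, and calls in both directions occurred within the syntaxins and within the Unc13 genes.

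**Figure D1:**
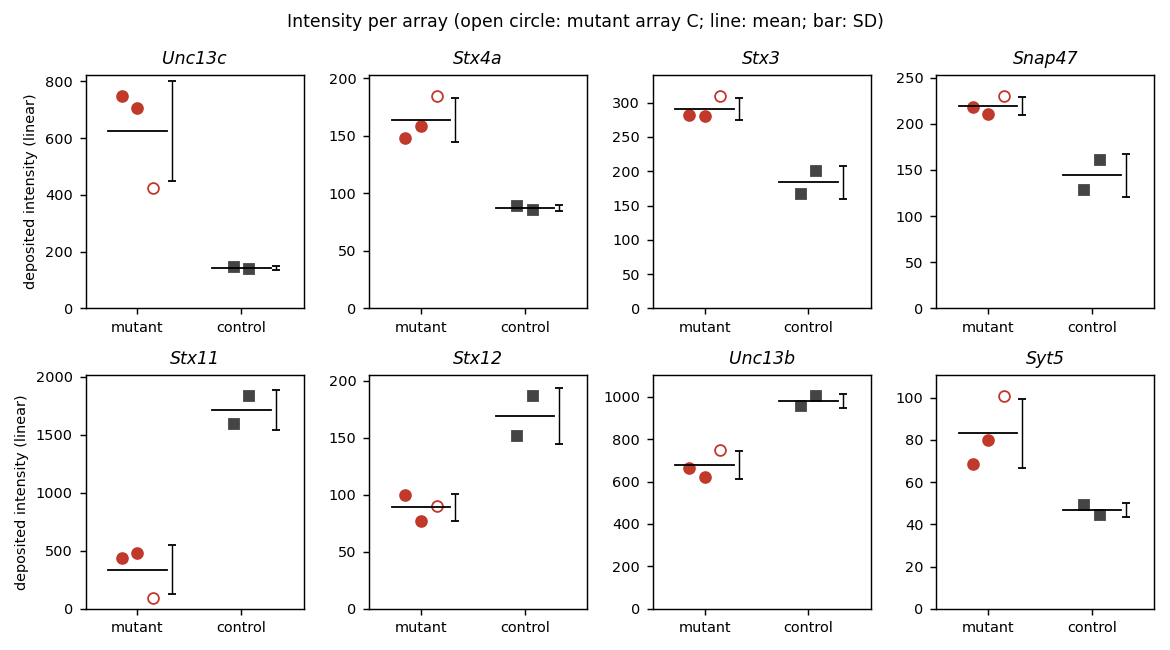
Intensity on each array (linear axis from 0) for the 7 members that passed the test and for Syt5, which narrowly did not, with mutant arrays as circles and control arrays as squares, the mean as a line and the SD as a bar (n = 3 mutant, n = 2 control). The groups do not overlap in any panel, and mutant array C (open circle) lies far below mutant arrays A and B for Stx11 and below them for Unc13c.

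*Unc13c* and *Stx11* showed the largest fold changes of the family. Both are among the genes the study itself picked from these arrays, so their change here is not independent evidence. *Unc13c* encodes Munc13-3, a priming factor best known from cerebellar granule cells. It read 748.8, 704.1 and 424.8 in mutant lenses A, B and C, against 146.7 and 137.2 in control lenses A and B. All 3 mutant arrays were well above both controls, and mutant array C was the lowest of the mutants. The log2 fold change was 1.85 ± 0.21 (SE), or 3.62-fold, with an adjusted p of 0.00471. All 3 *Unc13c* probes were higher. A dimmer probe read 207.7, 184.4 and 131.3 in mutant lenses, against 35.2 and 24.6 in control lenses (log2 fold change 1.65, adjusted p 0.00264 over the 34885 single-gene probes). The dimmest read 52.1, 49.2 and 26.7 in mutant lenses, against 9.6 and 10.9 in control lenses (0.74, adjusted p 0.0325). On each of the 3 probes mutant array C was the lowest of the mutants and above both controls. In mutant array C alone against both controls the log2 fold change was 1.37 (adjusted p 0.00178), and without that array it was 2.10 (adjusted p 1.42e-04).

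*Stx11* encodes a target-membrane syntaxin that lacks a transmembrane segment and is known for the release of cytotoxic granules by lymphocytes. It read 437.4, 480.9 and 94.3 in mutant lenses A, B and C, against 1592.3 and 1833.7 in control lenses A and B. Every mutant array was far below both controls, and mutant array C was far below the other 2 mutants. The log2 fold change was -2.46 ± 0.53 (SE), 5.49-fold lower, with an adjusted p of 0.0415. The mutants spread widely. In mutant array C alone the log2 fold change was -3.74 (adjusted p 2.00e-05) and without that array it was -1.82 (adjusted p 4.10e-04). The dimmer *Stx11* probe read 18.1, 18.4 and 7.6 in mutant lenses, against 85.4 and 100 in control lenses, and was lower as well (log2 fold change -1.34, adjusted p 0.00184 over probes). *Stx11* lost its call under median centring of the arrays (adjusted p 0.0680), with an intensity trend and robust moderation (0.221) and with array weights (0.0524). Its log2 fold change in these fits lay between -2.46 and -2.05.

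The sequence around the annotated start of these 2 genes is shown because they change most and in opposite directions. Each window runs from 250 bases before to 50 bases after the start and was taken from RefSeq (build GRCm38.p6), which held windows for 47 of the 61 members, all 7 that passed among them. *Unc13c* lies on the minus strand at chr9:73968988-73969287 and *Stx11* on the minus strand at chr10:12964210-12964509. Capitals mark the GC box GGGCGG and the CCAAT box on either strand.
Unc13c: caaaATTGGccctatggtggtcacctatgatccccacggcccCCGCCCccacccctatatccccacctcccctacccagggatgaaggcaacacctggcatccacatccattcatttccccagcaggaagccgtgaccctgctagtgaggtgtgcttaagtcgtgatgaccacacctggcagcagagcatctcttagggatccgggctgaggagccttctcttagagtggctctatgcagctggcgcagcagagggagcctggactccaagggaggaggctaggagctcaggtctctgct
Stx11: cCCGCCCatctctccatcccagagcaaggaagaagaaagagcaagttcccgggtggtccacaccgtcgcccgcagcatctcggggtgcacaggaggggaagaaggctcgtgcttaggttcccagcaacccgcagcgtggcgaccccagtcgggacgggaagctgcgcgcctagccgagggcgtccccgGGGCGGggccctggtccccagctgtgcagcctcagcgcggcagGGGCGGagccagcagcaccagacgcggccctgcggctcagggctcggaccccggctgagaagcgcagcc
The *Stx11* window holds 3 GC boxes and no CCAAT box, and the *Unc13c* window 1 of each. A GC box occurs in 35.7% of all 32851 windows and in those of 35 of the 47 members (counted if any window of the gene holds it), 6 of the 7 that passed included, all but *Stx3*. A CCAAT box occurs in 37.4% of all windows, in 16 members and in *Stx12*, *Stx4a*, *Unc13b* and *Unc13c* among those that passed. The Maf half-site TGCTGA on either strand, with overlaps between motifs allowed, occurs in 19.5% of all windows, in 8 members and in none of the 7. The 47 members have 58 windows, so the counts of members and the shares of windows are in different units and cannot be set against each other. These matches are a description of the letters only.

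The remaining Unc13 genes differed among themselves. *Unc13b* encodes Munc13-2, the more widely expressed relative of Munc13-1. It read 663.0, 620.3 and 747.8 in mutant lenses A, B and C, against 956.0 and 1002.9 in control lenses A and B. No mutant array reached either control, and the log2 fold change was -0.51 ± 0.10 (SE), adjusted p 0.0263. It was -0.37 in mutant array C alone (adjusted p 0.244) and lost its call with a constant of 16 (adjusted p 0.0897). *Unc13a*, the main neuronal form, and *Unc13d*, the Munc13-4 of blood cell granules, were dim, with all values of both between -0.4 and 16.4, and neither passed.

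Among the 14 syntaxins, *Stx4a* and *Stx3* were higher, *Stx12* was lower besides *Stx11*, and 10 did not pass. *Stx4a* encodes syntaxin 4, a plasma membrane SNARE of the basolateral side in epithelia. It read 148.1, 158.5 and 184.6 in mutant lenses A, B and C, against 89.2 and 85.3 in control lenses A and B. Every mutant array was above both controls, and the log2 fold change was 0.69 ± 0.10 (SE), adjusted p 0.00913. The other probe of *Stx4a* read 77.9, 65.6 and 68.4 in mutant lenses, against 32.3 and 55.4 in control lenses, with a log2 fold change of 0.43 that did not pass (adjusted p 0.138). In mutant array C alone the brighter probe gave 0.84 (adjusted p 0.0138).

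*Stx3* encodes syntaxin 3, the plasma membrane SNARE of the apical side in epithelia. It read 281.7, 280.3 and 309.9 in mutant lenses A, B and C, against 166.5 and 200.8 in control lenses A and B. The groups did not overlap, and the log2 fold change was 0.57 ± 0.10 (SE), adjusted p 0.0171. Its 4 probes, which were designed on 3 different transcript records, did not move alike. The next brightest read 108.6, 74.3 and 90.2 in mutant lenses, against 56.6 and 70.8 in control lenses (log2 fold change 0.34, adjusted p 0.238 over probes). The dimmest 2, on one record, gave 0.08 and -0.21 with overlapping groups. Averaging all 4 probes gave 0.20 and no call (adjusted p 0.393), and in mutant array C alone the brightest probe gave 0.66 (adjusted p 0.0518).

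*Stx12* encodes an endosomal syntaxin of recycling vesicles, and it has 1 probe. It read 100.1, 76.7 and 90 in mutant lenses A, B and C, against 151.5 and 186.6 in control lenses A and B. The mutant lenses lay below both controls and close together, with a log2 fold change of -0.71 ± 0.11 (SE), adjusted p 0.0137. In mutant array C alone it was -0.70 (adjusted p 0.0445). *Stx5a*, the syntaxin of traffic between the endoplasmic reticulum and the Golgi, read 833.6, 869.7 and 844.8 in mutant lenses, against 793.5 and 857.3 in control lenses. Its groups overlapped, and the 95% interval of the log2 fold change ran from -0.15 to 0.23.

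**Figure D2:**
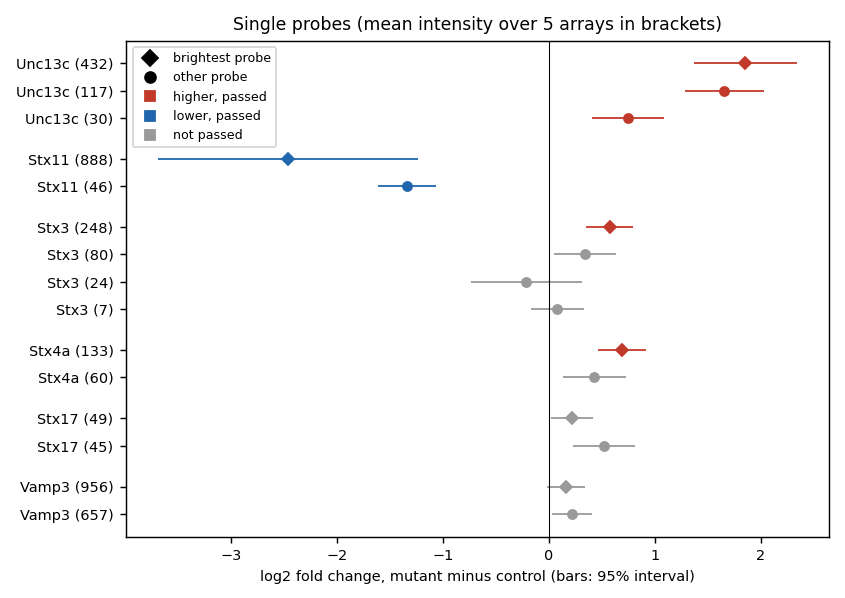
Log2 fold change (mutant minus control) with its 95% interval for each single probe of 6 members, the brightest probe of each as a diamond, with the mean intensity of the probe over the 5 arrays in brackets. All probes of Unc13c lie above 0 and both of Stx11 below 0, whereas only the brightest of 4 Stx3 probes and of 2 Stx4a probes passed.

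The SNAP-25-type SNAREs contributed 1 call. *Snap47*, a relative of SNAP-25 found in many tissues, read 217.9, 210.9 and 230.3 in mutant lenses A, B and C, against 127.9 and 160.3 in control lenses A and B. The groups did not overlap, and the log2 fold change was 0.51 ± 0.10 (SE), adjusted p 0.0293. It was 0.57 in mutant array C alone (adjusted p 0.0964), and the call was lost with a constant of 16 (0.0767) and with an intensity trend and robust moderation (0.0554). *Snap23*, the SNAP-25 form of non-neuronal cells, read 230.8, 195.6 and 199.9 in mutant lenses, against 219.7 and 145.6 in control lenses, with overlapping groups (log2 fold change 0.18, adjusted p 0.618). *Snap25*, the neuronal form, was between -0.4 and 4.0 in mutant lenses and at 3.3 and 10.8 in control lenses. *Snap91* entered by its name alone, since it encodes the clathrin adaptor AP180 and no SNARE, and it was between 11.4 and 15.0 on all arrays.

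None of the 7 Vamp genes, the vesicle SNAREs, passed the limma test. At an unadjusted p under 0.05 there was 1 higher and 1 lower, against 9.03% and 8.76% of all genes. *Vamp3*, the cellubrevin of recycling endosomes, read 1005.1, 966.5 and 1024.7 in mutant lenses A, B and C, against 920.2 and 861.1 in control lenses A and B. The mutant lenses were above both controls on this probe and on the other one, but the shifts were small (log2 fold change 0.16, adjusted p 0.375, and 0.22, adjusted p 0.246 over probes). *Vamp2*, the main vesicle SNARE of neurons, read 267.9, 290.8 and 240.7 in mutant lenses, against 218.3 and 264.3 in control lenses (0.13, adjusted p 0.637). *Vamp7*, the SNARE of lysosomes and late endosomes, is X-linked and read 202.8, 187.7 and 128.8 in mutant lenses, against 249.1 and 228.7 in control lenses. Its groups did not overlap, and the log2 fold change of -0.41 ± 0.16 (SE) had an adjusted p of 0.221. Mutant array C, the one with *Xist*, was the lowest, and in that array alone *Vamp7* gave -0.74 with an adjusted p of 0.0249, whereas without it the value was -0.25 (adjusted p 0.211).

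None of the 6 syntaxin-binding proteins passed the limma test, with 0 higher and 2 lower at an unadjusted p under 0.05, which 9.03% of all genes reached upward and 8.76% downward. *Stxbp2* encodes Munc18-2, the partner of syntaxins 3 and 11 outside neurons. It read 81.5, 74.9 and 60.2 in mutant lenses A, B and C, against 104.3 and 96.4 in control lenses A and B. Every mutant array was below both controls, and the log2 fold change was -0.34 ± 0.10 (SE) with an adjusted p of 0.130. *Stxbp4*, a syntaxin 4 binding protein, read 111.5, 105.5 and 97.3 in mutant lenses, against 106.5 and 145.6 in control lenses, with overlapping groups (-0.19, adjusted p 0.473).

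The synaptotagmins and the *Sytl* genes were mostly dim. Of the 17 synaptotagmins, 4 had a mean above the median of all genes (11.2), and none of the 4 *Sytl* genes did. No synaptotagmin passed the limma test, with 1 higher and 1 lower at an unadjusted p under 0.05. No *Sytl* or *Rims* gene reached even that level, which 9.03% of all genes reached upward and 8.76% downward. *Syt5*, a synaptotagmin of dense-core vesicles, came closest to the threshold. It read 68.6, 80.0 and 100.7 in mutant lenses A, B and C, against 49.0 and 44.5 in control lenses A and B. Every mutant array was above both controls, and the log2 fold change of 0.51 ± 0.12 (SE) had an adjusted p of 0.0525. It passed under median centring (0.0470), with dim genes left out (0.0466), without mutant array A (0.0396) and in mutant array C alone (0.72, adjusted p 0.0260). *Syt11*, which does not bind calcium, read 179.2, 173.2 and 165.1 in mutant lenses, against 176.8 and 134.1 in control lenses, with overlapping groups (0.13, adjusted p 0.621). *Sytl2* and *Sytl3*, effectors of Rab27, lay between 2.0 and 13.7 on all arrays. *Rims1* and *Rims3*, active zone proteins, were between 12.2 and 19.1 in mutant lenses and between 11.5 and 19.0 in control lenses, with overlapping groups.

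Another 5 members, named after their values were seen, had an unadjusted p under 0.05 and did not pass after adjustment. *Stx1a*, the neuronal plasma membrane syntaxin, read 59.3, 61.1 and 60.7 in mutant lenses A, B and C, against 46.8 and 40.2 in control lenses A and B (log2 fold change 0.28, adjusted p 0.106). *Stx17*, the syntaxin of autophagosomes, gave 0.22 (adjusted p 0.242), and its other probe read 44.9, 53.6 and 72.3 in mutant lenses, against 30.4 and 26.0 in control lenses, with 0.52 and an adjusted p of 0.0682 over probes. On both *Stx17* probes every mutant array was above both controls. *Vamp4*, of the trans-Golgi network, gave 0.19 (adjusted p 0.270), and *Stxbp5* (tomosyn), which binds syntaxins and blocks SNARE assembly, gave -0.25 (adjusted p 0.220). *Syt16* gave -0.27 (adjusted p 0.104) on values of at most 12.2.

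**Figure D3:**
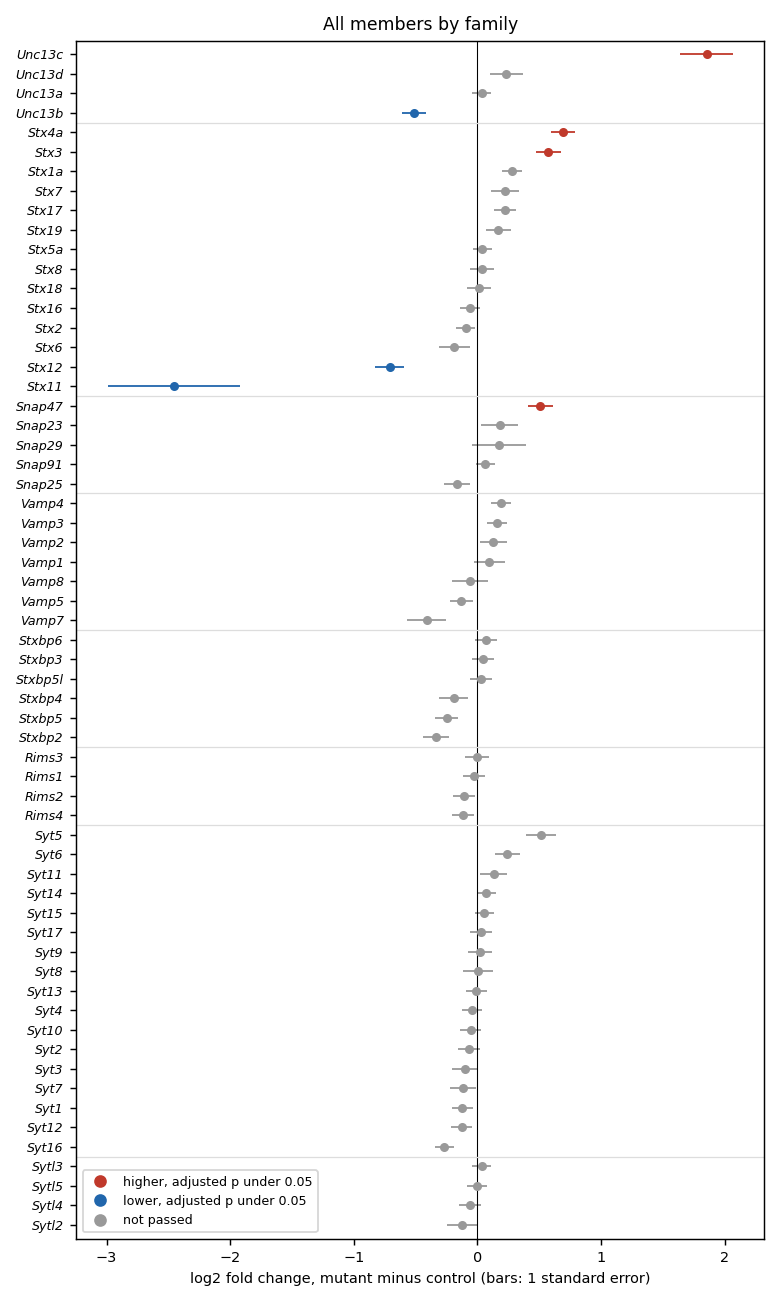
Log2 fold change (mutant minus control, with 1 standard error) of all 61 members by family, members higher in mutant lenses in red, members lower in blue and members that did not pass in grey. Most members lie within 0.3 of 0, and the syntaxins and the Unc13 genes each hold calls in both directions.

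By level, 35 of the 61 members had a mean over the 5 arrays above the median of all genes. They were 13 of 14 syntaxins, 6 of 7 Vamp, 4 of 5 Snap, 4 of 6 Stxbp, 2 of 4 Unc13, 2 of 4 Rims and 4 of 17 Syt genes. The other 26 members had values between -5.8 and 16.4 on every array, log2 fold changes between -0.27 and 0.24, and no call. The 3 X-linked members were *Sytl4*, *Sytl5* and *Vamp7*, of which the first 2 were among the dim ones. Over single probes, 10 of the 121 member probes passed (8.26%), against 4.28% of all single-gene probes, with 6 higher and 4 lower. They were the 3 probes of *Unc13c*, both of *Stx11* and 1 each of the other 5 members that passed.

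**Figure D4:**
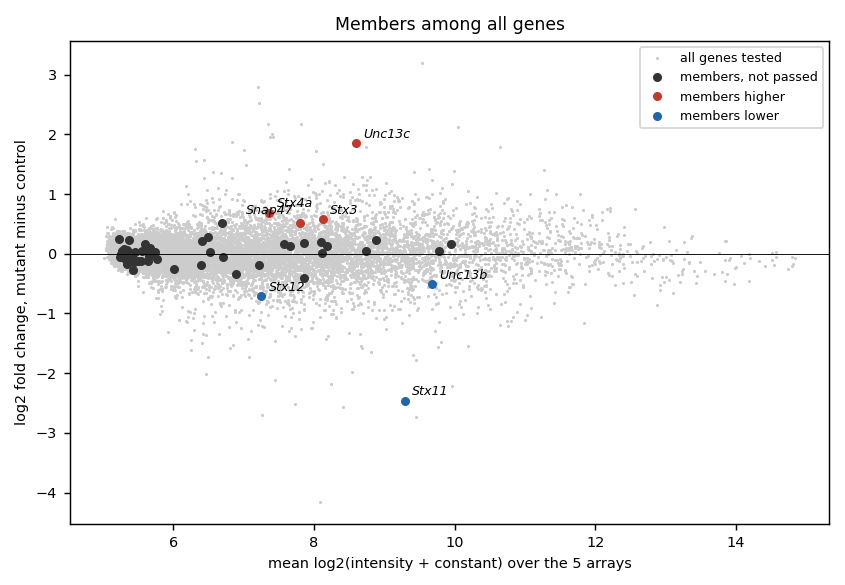
Log2 fold change (mutant minus control) against the mean log2(intensity + constant) over the 5 arrays for all 19057 genes (grey), with members higher in mutant lenses in red, lower in blue and not passed in black. Unc13c and Stx11 lie at the edge of the cloud, the other 5 that passed within its outer part, and many members crowd at the dim end on the left.

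The proteins that act on or beside the members were described from a list of 79 other exocytosis genes, all of them measured. Of these 5 were higher (6.33%, against 3.15% of all genes), 2 were lower (2.53%, against 2.68%) and 72 did not pass. At an unadjusted p under 0.05 there were 11 higher (13.9%, against 9.03%) and 9 lower (11.4%, against 8.76%). *Nsf*, the ATPase that takes spent SNARE bundles apart, was the only one of 14 partners to pass. It read 289.1, 298.3 and 328.4 in mutant lenses A, B and C, against 150.1 and 124.0 in control lenses A and B (log2 fold change 0.98 ± 0.10, adjusted p 0.00318). *Sec22b*, a SNARE of the endoplasmic reticulum and Golgi outside the families above, read 1077.3, 1051.4 and 1094.9 in mutant lenses, against 625.9 and 632.9 in control lenses (0.74 ± 0.08, adjusted p 0.00329). In both genes the groups lay far apart, and both passed in all 15 alternative fits, mutant array C alone included (adjusted p 0.00680 for *Nsf* and 0.0195 for *Sec22b*). With all probes averaged the log2 fold change was 0.54 for *Nsf* (adjusted p 0.0185) and 0.60 for *Sec22b* (0.00418).

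Of the 10 genes listed for the exocyst, the complex that tethers vesicles to the plasma membrane, *Exoc3* alone was higher. It read 191.9, 178.8 and 178.7 in mutant lenses A, B and C, against 86.4 and 118.0 in control lenses A and B (log2 fold change 0.67, adjusted p 0.0149). The 14 Rab3 and Rab27 genes, small GTPases of secretory vesicles and their effectors, had no call by limma and log2 fold changes between -0.28 and 0.11. At an unadjusted p under 0.05 there were 0 higher and 1 lower, against 9.03% and 8.76% of all genes. Among the 14 calcium sensors and active zone proteins *Cadps2*, a priming factor of dense-core vesicles, was lower. It read 136.5, 122.9 and 116.0 in mutant lenses, against 217.2 and 186.5 in control lenses (-0.56, adjusted p 0.0183), and lost its call with all probes averaged (-0.15, adjusted p 0.384). The synaptogyrins, membrane proteins of vesicles, gave a call in each direction. *Syngr2*, the widely expressed form, read 45.3, 59.3 and 63.1 in mutant lenses, against 95.9 and 117.2 in control lenses (-0.63, adjusted p 0.0221), and averaging its probes gave -0.30 and no call (adjusted p 0.123). *Syngr3* was dim, at 31.1, 29.9 and 37.6 in mutant lenses, against 8.8 and 13.9 in control lenses (0.54, adjusted p 0.0178). These 4 calls did not hold in every fit with an array left out. Fewer of all genes passed in those fits as well, except without mutant array C. *Exoc3* lost its call without control array A (adjusted p 0.0531), *Syngr3* without mutant array B (0.0524), control array A (0.0799) or control array B (0.0646), and *Cadps2* without mutant array B (0.0697), control array A (0.0823) or control array B (0.0604). *Syngr2* lost it without mutant array A (0.0501), mutant array B (0.0596), control array A (0.0531) or control array B (0.158). None of the 4 passed in mutant array C alone, though the log2 fold changes were of similar size, at 0.64 for *Exoc3* (adjusted p 0.0770), 0.63 for *Syngr3* (0.0505), -0.64 for *Cadps2* (0.0517) and -0.52 for *Syngr2* (0.117).

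With 2 control arrays, each of them weighed on the calls. Without control array A the call remained for *Stx12* and *Unc13c* only, and without control array B for none of the 7, where *Unc13c* gave 1.82 (adjusted p 0.0635) and *Stx12* -0.59 (0.109) as log2 fold changes. The adjusted p without control array A or B was 0.0506 or 0.0812 for *Stx4a*, 0.0728 or 0.0520 for *Stx3*, 0.0961 or 0.0521 for *Snap47*, 0.142 or 0.261 for *Stx11* and 0.0807 or 0.160 for *Unc13b*. Without mutant array A or B, *Snap47* (0.0746 or 0.0794) and *Unc13b* (0.0757 or 0.0940) lost their calls, and without mutant array B *Stx3* did (0.0541). All 7 kept their direction in every one of the 15 alternative fits. Their groups do not overlap, so no fit with arrays left out could have turned the sign. In mutant array C alone the log2 fold changes of the 7 ran from -3.74 (*Stx11*) to 1.37 (*Unc13c*). Under quantile normalization the same 7 passed, and without mutant array C as well.

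**Figure D5:**
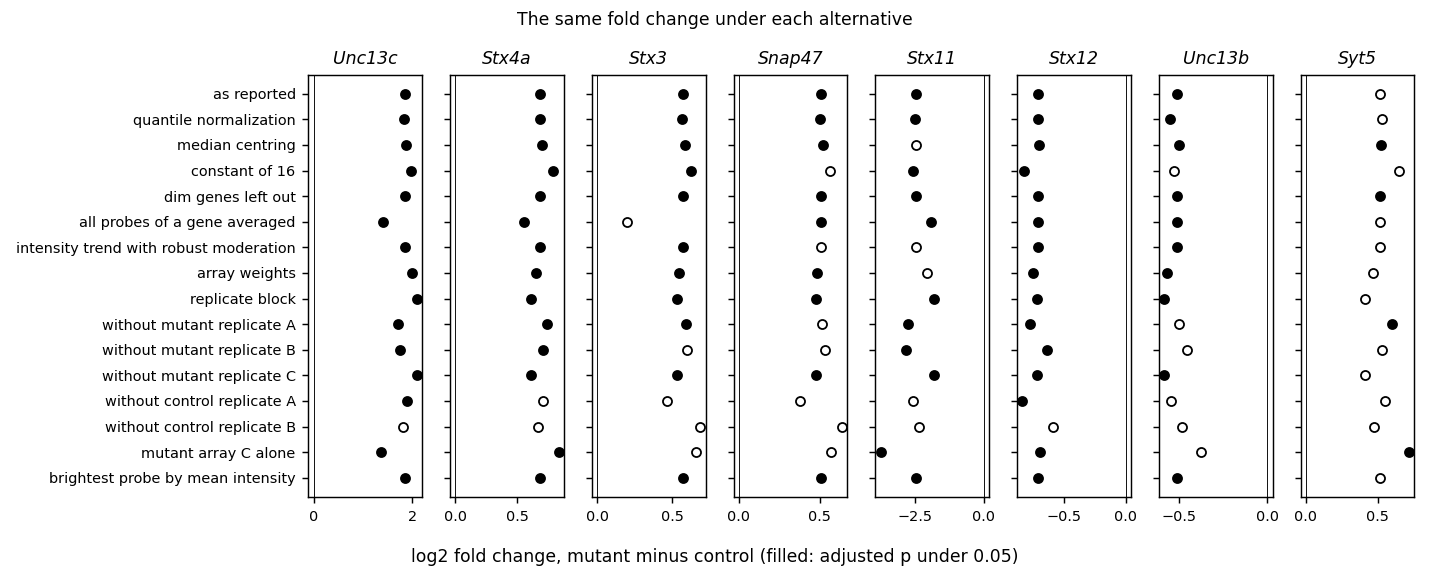
Log2 fold change (mutant minus control) of the 7 members that passed and of Syt5 as reported and under each alternative, filled where the adjusted p was under 0.05. The signs never change, and where the groups do not overlap, leaving out arrays could not change them. Stx11 runs between -3.74 and -1.82. The filled points thin out when either control array is left out, as calls did over all genes.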

How the data were processed

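RNA of newborn mouse lenses was measured on 5 Illumina MouseWG-6 v2.0 arrays, 3 mutant and 2 control. The authors used lumi, an R package, to subtract background and then applied Rank Invariant normalization, and the deposited values are linear intensity, 1 value per probe on each array. The versions used upstream were not given in the sources used here. In the platform annotation 34885 probes carry 1 gene symbol, 18 carry several and 10378 carry no symbol. All 5 columns were used.

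Intensities were raised by 36.5, so that the lowest became 16, and log2 was taken. No further normalization or filter was applied. Each of 19057 genes was represented by the probe with the highest mean log2 value, which was the brightest for every member. The test of mutant against control was the two-sided moderated test of limma 3.58.1 under R 4.3.3 (lmFit, then eBayes, without a block), with Benjamini-Hochberg adjustment over all genes or, for probes, over 34885 probes, after the code had been tested on simulated data. The number of arrays limits the precision, and the labels do not say that replicates come from separate animals, so p-values measure only the spread between these samples. Intervals are 95% intervals of the moderated fit.

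Named in full were members past the threshold, *Stx11* and *Unc13c*, the 2 brightest members of each family, the 5 largest fold changes in each direction at an unadjusted p under 0.05, members with a passing probe other than the brightest, and up to 6 other exocytosis genes by p. Members and lists were chosen with earlier results of these data known. Alternatives were quantile normalization, median centring, a constant of 16, leaving out dim genes, averaging probes, array weights, robust moderation with a trend on intensity, a replicate block, leaving out each array, mutant array C alone and, added after the data were seen, the brightest probe by mean intensity. Promoter windows are from RefSeq (GRCm38.p6). Figures were drawn with matplotlib 3.10.9 in Python 3.11.15.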

Additional observations from a re-analysis of the deposited data

How the results depend on the processing

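The counts of members that passed, 4 higher and 3 lower, stayed within 1.5 times of these values under the alternatives run, except when arrays were left out. Leaving out 1 mutant array at a time gave 2 to 4 members higher and 2 to 3 lower. It gave 3 to 6 other exocytosis genes higher, 0 to 3 lower, and 5 to 9 member probes. The share of all genes that passed moved as well, from 3.17% to 6.19% in these fits, against 5.82% as reported. Without control array A or B, which leaves 1 control array, fewer members and fewer of all genes passed. The other exocytosis genes that were lower numbered 2 as reported and 0 with all probes averaged. In mutant array C alone the log2 fold changes of the other exocytosis genes named by the rule ran from -0.64 (*Cadps2*) to 1.08 (*Nsf*). The fold changes of the 20 members named by the rule were followed through the alternatives. Of these, 6 turned sign, none of them past the threshold in any fit run. Their log2 fold changes as reported lay between -0.12 (*Sytl2*) and 0.18 (*Snap23*). *Rims3* gave 0.014 under quantile normalization, 0.0082 under median centring and 0.095 in mutant array C alone. With all probes averaged *Rims1* gave 0.027, *Snap23* -0.015 and *Sytl2* 0.015. With single arrays left out, *Rims3* ran from -0.096 to 0.090, *Rims1* from -0.13 to 0.062, *Snap23* from -0.066 to 0.43, *Sytl2* from -0.32 to 0.067, *Stx5a* from -0.013 to 0.094 and *Syt11* from -0.030 to 0.29.

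The labels give mutant and control arrays the letters A and B in common. The correlations of deviations between same-lettered arrays were 0.0029 and 0.025. With 2 controls, the deviations of control arrays A and B mirror each other. These values therefore cannot tell whether same-lettered arrays share more than a letter. A replicate block gave 5 members higher and 3 lower, the same 7 and *Snap29*, 6 other genes higher and 2 lower, and 13 member probes. Over all genes the share that passed rose as well, to 6.69%, against 5.82% as reported. Mutant array C has no control of its letter, so the block takes it out of the contrast, and the fold changes of the named genes equalled those without mutant array C. The cause of the other changes was not tested. With 3 mutant and 2 control arrays, 1 of them deciding several calls, and 26 of 61 members at or below the median signal, small changes of dim members may have been missed.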

Other observations

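Another 2 vesicle proteins were named after their values were seen. *Sv2a*, a membrane protein of secretory vesicles, read 86.8, 113.3 and 75.2 in mutant lenses A, B and C, against 51.5 and 47.8 in control lenses A and B, and was higher (log2 fold change 0.56, adjusted p 0.0474 by limma). *Sv2a* lost its call under median centring, with a constant of 16, and without mutant array A or mutant array B. Fewer of all genes passed in those fits as well, 3.17% to 5.15%, against 5.82% as reported. *Syn2*, a synapsin that holds vesicles in reserve, read 1162.0, 1127.1 and 653.8 in mutant lenses, against 537.5 and 570.1 in control lenses. Every mutant array was above both controls, mutant array C was closest to them, and the log2 fold change of 0.74 had an adjusted p of 0.122.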
